A study of Oryza sativa Japonica Group with 6 samples.

Results

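The genes described here are 7 type-A cytokinin response regulators of rice, OsRR1, OsRR2, OsRR4, OsRR6, OsRR7, OsRR9 and OsRR10, together with the cytokinin oxidase OsCKX2. They were picked by gene identifier, and the list was drawn up with earlier results of these data known. All 8 are listed in the deposited table of 37863 genes. They were measured by polyA RNA sequencing of rice leaf (Oryza sativa, Japonica group) in 2 groups of 3 libraries. OsWRKY65-2 is a line that overexpresses the WRKY transcription factor OsWRKY65, and WT is wild type. Seedlings of both groups were 14 days old and had been grown on MS medium (a synthetic plant nutrient medium) at 28 °C under 16 h of light and 8 h of dark. OsWRKY65-2 is a single line, and the promoter that drives its transgene and the hour of harvest are things the sources used here do not give. No label says that replicates came from separate plants, so a p-value reflects how far these libraries scatter, part of which may be technical. The 3 columns of the table that carry the WT values have a prefix which the labels do not explain. They were read as WT because no other columns remain for those samples, and were matched to them by number. The direction of every difference below rests on that reading.

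Cytokinins are plant hormones that promote cell division and delay leaf senescence. In their signalling pathway, receptor histidine kinases pass a phosphate group through phosphotransfer proteins to type-B response regulators, which are transcription factors. Type-B regulators switch on the type-A genes, and type-A proteins, which have a receiver domain but no DNA-binding output domain, dampen the pathway in a negative feedback loop. Transcripts of type-A genes are therefore widely used as a readout of cytokinin response. Cytokinin oxidases break the hormone down, and OsCKX2 is the gene behind the rice grain number locus Gn1a.

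Total counts ranged from 20585288 to 29720852 per library. OsWRKY65-2 replicate 3 stood apart from the other libraries. Its log2 CPM (counts scaled to a library of 1000000 with TMM factors) correlated with theirs across genes at 0.603 to 0.695, against 0.856 to 0.926 for pairs without it. In that library 1661 genes were at 0 although their median count in the other 5 libraries was above 100, which is 9.68% of such genes, against 0.0473% to 0.257% in each of the others. Fold changes of the members and of the named pathway genes are therefore given with and without it. Os12g0116800, taken as the OsWRKY65 gene by its older locus name, was at 69.5, 42.3 and 1039.6 CPM in the OsWRKY65-2 libraries and at 4.16, 0 and 0 CPM in the WT libraries.

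Among the 8 members, OsRR2, OsRR4, OsRR9, OsRR10 and OsCKX2 were higher in every OsWRKY65-2 library than in any WT library, OsRR1 and OsRR6 overlapped between the groups, and OsRR7 had no counts. The near-identical pair OsRR9 and OsRR10 had the widest separation among the regulators, at means of 36.8 ± 7.10 CPM for the summed pair in OsWRKY65-2 and 9.997 ± 5.89 CPM in WT (SD, n = 3 each). OsCKX2 entered the test only through its counts in OsWRKY65-2, so its separation was in part a condition of being tested. The other 4 make up 4 of the 7 regulators, of which OsRR7 could not be tested. Beside them, 7.16% of the 23769 tested genes had all OsWRKY65-2 libraries above WT. Because OsRR9 and OsRR10 can share reads, they are not independent entries in this count or in the counts of members below. None of the 8 members lay wholly below, against 10.5% of tested genes. No member passed edgeR's quasi-likelihood test at a Benjamini-Hochberg adjusted p under 0.05 over all genes. That test called 0.0% of genes in either direction, as did limma-voom. At an unadjusted p under 0.05, edgeR placed 4 members higher (OsRR2, OsRR4, OsRR9 and OsRR10), against a background of 4.25%, and no member lower, against 2.26%. DESeq2 called 1 member higher, OsRR9, against 0.613% of the 29518 genes with any count, and none lower, against 0.356%. Some of those genes received no adjusted p in DESeq2, so these shares, and the DESeq2 shares below, are somewhat understated. Without OsWRKY65-2 replicate 3 it called 3 members higher, OsRR2, OsRR9 and OsRR10, against 0.939% of genes, and none lower, against 1.49%. With that library left out edgeR called no member, against 0.0527% of genes called higher and 0.0243% called lower. In the same 5 libraries the same 4 regulators and OsCKX2 lay wholly above WT and no member wholly below, against 14.5% and 13.9% of tested genes. An exact two-sided permutation test of 3 against 3 libraries cannot give a p below 0.10, and OsRR2, OsRR4, OsRR9 and OsRR10 each gave that value, as did OsCKX2 with the reservation above. Any gene with separate groups gives it, so it restates the separation and adds nothing to it.

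**Figure D1:**
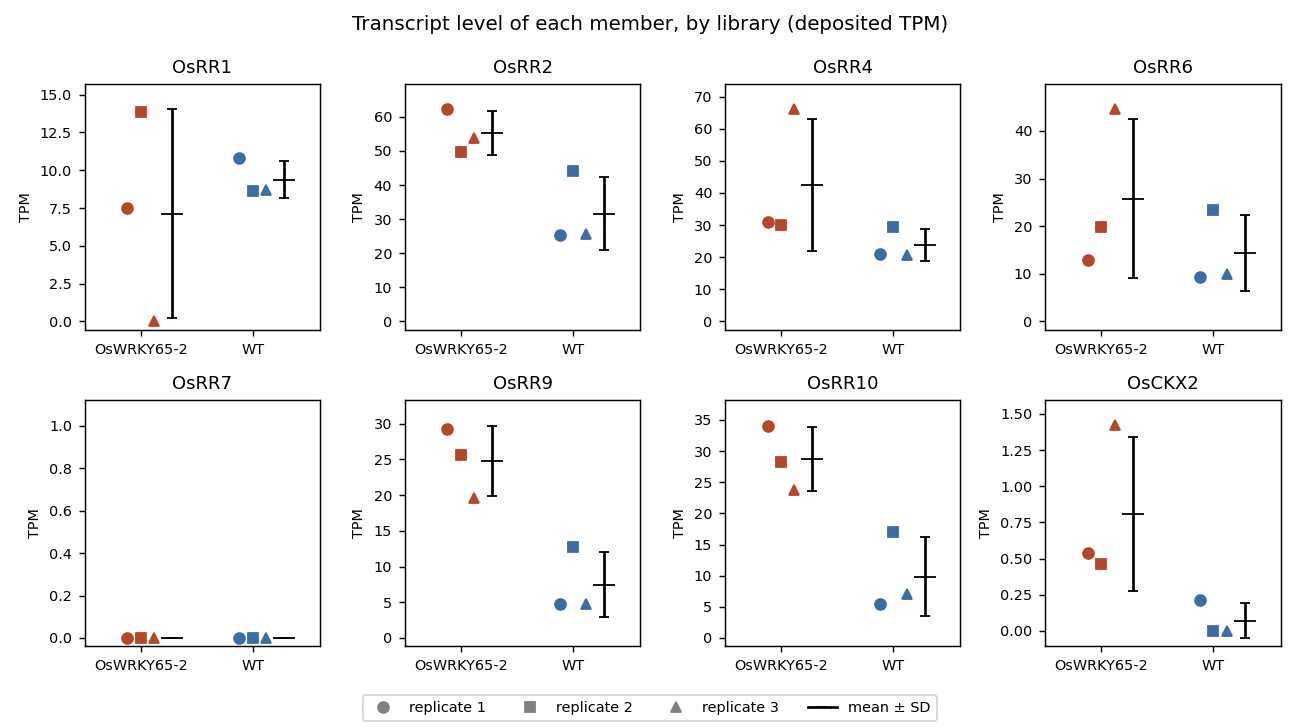
Deposited TPM (a length-scaled level, vertical axis) of each of the 8 members in the 3 OsWRKY65-2 and 3 WT libraries, with the mean and SD per group. The groups are separate for OsRR2, OsRR4, OsRR9, OsRR10 and OsCKX2, overlap for OsRR1 and OsRR6, and are all at 0 for OsRR7.

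OsRR9 (Os11g0143300, chromosome 11) and OsRR10 (Os12g0139400, chromosome 12) are copies on the duplicated ends of those chromosomes, and in rice both are known as negative regulators of salt tolerance. OsRR9 had 390, 465 and 255 counts in OsWRKY65-2 replicates 1 to 3, against 66, 232 and 75 counts in WT replicates 1 to 3. That is 20.5, 16.6 and 13.6 CPM in OsWRKY65-2 and 2.64, 7.09 and 3.05 CPM in WT. The lowest OsWRKY65-2 library lay well above the highest WT library, and WT replicate 2 was the highest of its group. The log2 fold change of OsRR9 was 1.97 ± 0.48 (SE, edgeR, adjusted p = 0.763), and it was 2.09 ± 0.45 without OsWRKY65-2 replicate 3 (adjusted p = 0.202, edgeR). In DESeq2 the adjusted p of OsRR9 was 0.0214 with all libraries and 0.00728 without that replicate.

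OsRR10 ran in parallel. It had 24.1, 18.5 and 17.1 CPM in OsWRKY65-2 and 3.04, 9.62 and 4.55 CPM in WT, again with no overlap and with WT replicate 2 the highest WT library. Its log2 fold change was 1.78 ± 0.49 (SE, edgeR, adjusted p = 0.763), and 1.87 ± 0.46 without OsWRKY65-2 replicate 3 (adjusted p = 0.244, edgeR). DESeq2 gave OsRR10 an adjusted p of 0.0724 with all libraries and 0.0285 without that replicate.

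Because reads of near-identical copies can be assigned to either gene, the pair was also summed before the fit. The sum was at 44.6, 35.1 and 30.7 CPM in OsWRKY65-2 and at 5.68, 16.7 and 7.60 CPM in WT. Its log2 fold change was 1.87 ± 0.46 (SE, adjusted p = 0.764, edgeR) and stayed between 1.58 and 2.44 when each library was left out in turn. The share of OsRR9 in the counts of the pair was 45.9%, 47.3% and 44.4% in OsWRKY65-2 and 46.5%, 42.4% and 40.1% in WT. In every library OsRR9 therefore held the smaller part of the pair's counts. The exact 95% binomial intervals of these shares, which cover counting error only, reached from 40.3% to 50.5% over the OsWRKY65-2 libraries and from 33.0% to 55.0% over the WT libraries, and the shares of the groups overlapped.

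**Figure D2:**
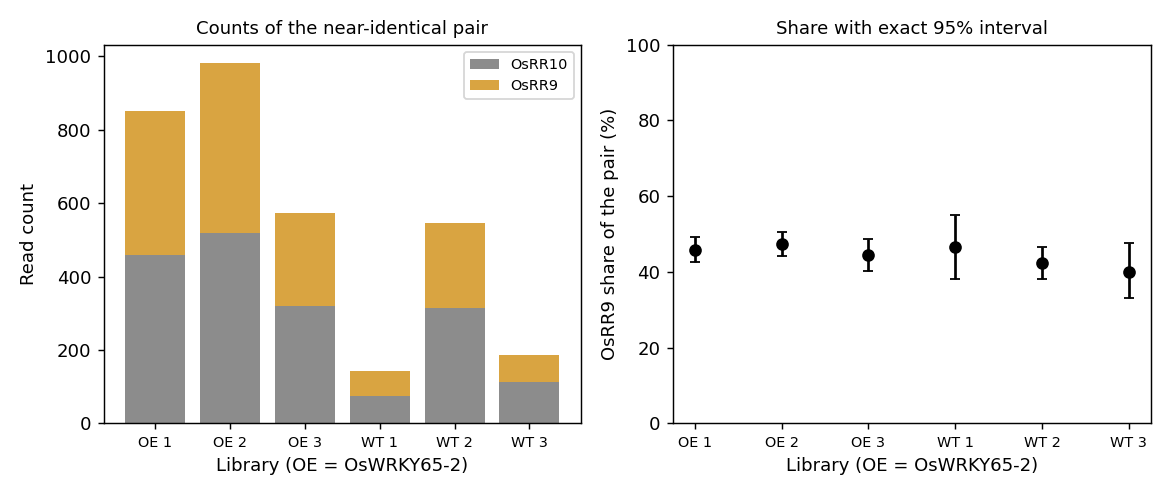
Read counts of OsRR9 and OsRR10 in the 6 libraries, not scaled to depth (left), and the share of OsRR9 in the counts of the pair with exact 95% binomial intervals (right). In counts the summed pair is at 574 in OsWRKY65-2 replicate 3 and at 547 in WT replicate 2. Scaled to depth, which is not drawn, it reaches 30.7 CPM or more in each OsWRKY65-2 library and 16.7 CPM or less in each WT library. The share of OsRR9 overlaps between the groups.

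OsRR2 (Os02g0557800, chromosome 2), known in rice as a target that the homeobox factor WOX11 represses in crown root development, was the most abundant member in both groups. It had 1308, 1507 and 1153 counts in OsWRKY65-2 and 536, 1257 and 635 counts in WT. Scaled to depth these were 68.6, 53.8 and 61.7 CPM in OsWRKY65-2, against 21.5, 38.4 and 25.8 CPM in WT. The groups did not overlap, and the 3 OsWRKY65-2 libraries lay close together, at 61.3 ± 7.42 CPM against 28.6 ± 8.81 CPM in WT (SD, n = 3 each). The log2 fold change of OsRR2 was 1.10 ± 0.28 (SE, edgeR, adjusted p = 0.763), and it was 1.10 ± 0.27 without OsWRKY65-2 replicate 3 (adjusted p = 0.244, edgeR). In DESeq2 the adjusted p of OsRR2 was 0.0716 with all libraries and 0.0323 without that replicate.

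OsRR4 (Os01g0952500, chromosome 1), another cytokinin-inducible type-A gene, was at 37.9, 33.7 and 81.7 CPM in OsWRKY65-2 and at 20.2, 28.7 and 22.8 CPM in WT. Its groups did not overlap, but the lowest OsWRKY65-2 library was only 1.18 times the highest WT library, and replicate 3 was far above the other OsWRKY65-2 libraries. The log2 fold change of OsRR4 was 1.09 ± 0.40 (SE, edgeR, adjusted p = 0.763) with all libraries and 0.58 ± 0.23 without OsWRKY65-2 replicate 3 (adjusted p = 0.428, edgeR). The size of the OsRR4 difference therefore moved with the library that stood apart, more than those of OsRR2, OsRR9 and OsRR10.

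OsRR6 (Os04g0673300, chromosome 4), whose overexpression in rice is known to lower cytokinin sensitivity and stunt the shoot, overlapped between the groups. It was at 10.02, 14.1 and 34.7 CPM in OsWRKY65-2 and at 5.64, 14.4 and 6.99 CPM in WT, so that WT replicate 2 lay above OsWRKY65-2 replicates 1 and 2. edgeR put its difference at 1.11 ± 0.60 on the log2 scale (SE, adjusted p = 0.772), and at 0.41 ± 0.44 without OsWRKY65-2 replicate 3 (adjusted p = 0.806). The exact permutation p of OsRR6 was 0.3. WT replicate 2 was the only WT library above any OsWRKY65-2 library, so leaving it out separates the groups by construction. The log2 fold change of OsRR6 was then 1.62 ± 0.68 (SE, edgeR, adjusted p = 0.999).

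OsRR1 (Os04g0442300, chromosome 4) was the member without a clear direction. It had 171, 443 and 0 counts in OsWRKY65-2, against 270, 310 and 204 counts in WT, or 8.97, 15.8 and 0 CPM against 10.8, 9.47 and 8.29 CPM. The count of 0 in OsWRKY65-2 replicate 3 lies in the library where many genes expressed elsewhere had no counts. The log2 fold change of OsRR1 was -0.20 ± 1.46 (SE, adjusted p = 0.982, edgeR), and it turned to 0.38 ± 0.33 when that library was left out (adjusted p = 0.747, edgeR). In both fits its SE was close to the size of the change or above it, and the exact permutation p was 0.8.

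OsRR7 (Os07g0449700, chromosome 7) had no count in any of the 6 libraries and was removed by the filter on low counts. A count of 0 allows up to 3 counts, which correspond to 0.0916 to 0.159 CPM per library, for counting error only. Genes with a count of 1 were rare in each library, between 63 and 247, so low values may have been dropped before deposit, and a 0 may hide more than this limit.

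OsCKX2 (Os01g0197700, chromosome 1) was close to that limit in WT and low in OsWRKY65-2. It had 17, 20 and 45 counts in OsWRKY65-2 and 7, 0 and 0 counts in WT, or 0.891, 0.713 and 2.41 CPM against 0.280, 0 and 0 CPM. The log2 fold change of OsCKX2 was 3.03 ± 1.56 (SE, adjusted p = 0.770, edgeR), and 2.37 ± 1.78 without OsWRKY65-2 replicate 3 (adjusted p = 0.686, edgeR). With WT libraries at 0 this value depends on the prior count of the fit and gives no bound on the difference.

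**Figure D3:**
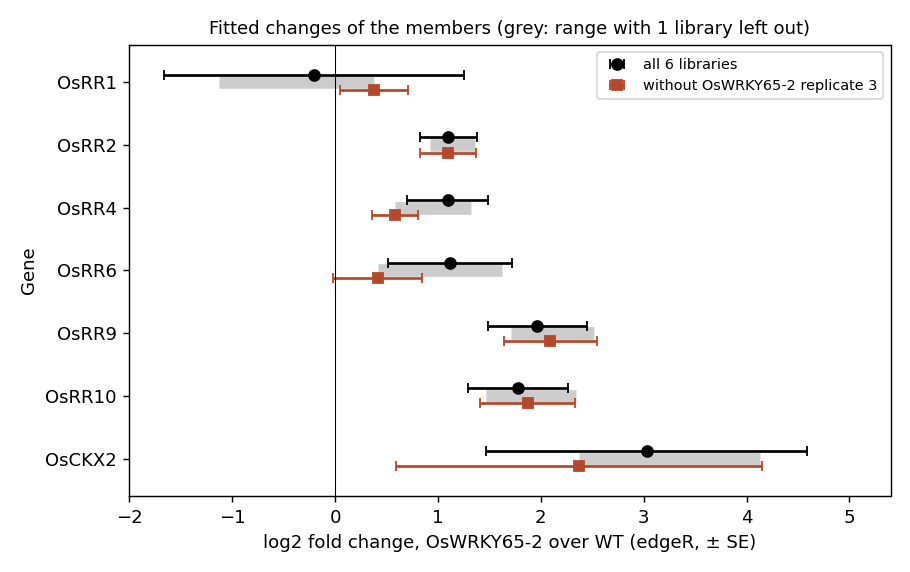
Log2 fold changes of OsWRKY65-2 over WT from edgeR (horizontal axis, ± SE) for the 7 tested members, with all 6 libraries and without OsWRKY65-2 replicate 3. Grey bars span the values with each library left out in turn, from 1.71 to 2.52 for OsRR9 and from -1.12 to 0.38 for OsRR1.

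Levels of different genes were compared per length, in TPM. In OsWRKY65-2 the order of mean levels was OsRR2 (55.2 ± 6.46 TPM), OsRR4 (42.4 ± 20.6), OsRR10 (28.7 ± 5.17), OsRR6 (25.8 ± 16.6), OsRR9 (24.8 ± 4.89), OsRR1 (7.12 ± 6.92), OsCKX2 (0.809 ± 0.534) and OsRR7 at 0 (SD, n = 3). In WT the order was OsRR2 (31.6 ± 10.8 TPM), OsRR4 (23.8 ± 4.94), OsRR6 (14.3 ± 7.95), OsRR10 (9.87 ± 6.28), OsRR1 (9.37 ± 1.23), OsRR9 (7.43 ± 4.56), OsCKX2 (0.0702 ± 0.122) and OsRR7 at 0 (SD, n = 3). Neighbours in these orders overlapped in their libraries, except OsRR9 over OsRR1 and OsCKX2 over OsRR7 in OsWRKY65-2 and OsRR9 over OsCKX2 in WT. OsRR2 and OsRR4 thus led in both groups, whereas OsRR9 and OsRR10 stood near OsRR1 in WT and above it in each OsWRKY65-2 library.

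The table annotates 7 further genes as A-type response regulators, which together with the 7 regulators described here make 14. Their summed level was 203, 186 and 239 TPM in OsWRKY65-2 and 107, 164 and 102 TPM in WT, with no overlap. The further 7 genes contributed 25.5, 19.2 and 31.2 TPM in OsWRKY65-2 and 30.6, 28.2 and 24.7 TPM in WT, which did overlap. OsRR9 made up 14.4%, 13.8% and 8.19% of the 14-gene sum in OsWRKY65-2, against 4.47%, 7.77% and 4.72% in WT. OsRR10 made up 16.8%, 15.2% and 9.94% in OsWRKY65-2, against 5.06%, 10.4% and 7.01% in WT. The share of OsRR9 was higher in every OsWRKY65-2 library than in any WT library, and that of OsRR10 was not, since OsWRKY65-2 replicate 3 lay below WT replicate 2. OsRR2, in comparison, held 30.7%, 26.6% and 22.5% of the sum in OsWRKY65-2 and 23.5%, 27.0% and 25.2% in WT, and these overlapped.

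The members did not follow a single profile over the libraries. Within OsWRKY65-2, replicate 1 was the highest library for OsRR2, OsRR9 and OsRR10, and replicate 3 was the highest for OsRR4, OsRR6 and OsCKX2. Replicate 3 was also the lowest for OsRR1, OsRR9 and OsRR10. Within WT, replicate 2 was the highest for 5 of the 7 detected members, namely OsRR2, OsRR4, OsRR6, OsRR9 and OsRR10. Likeness was measured as the root mean square difference between profiles of log2(CPM + 1), each centred on its mean over the 6 libraries, and smaller values mean more alike. OsRR9 and OsRR10 differed by 0.12, and OsRR4 and OsRR6 by 0.31. OsCKX2 lay nearest to OsRR4, at 0.26, but at its low level the pseudocount of 1 compresses its profile, and on plain CPM the ratio of the group means was 14.3 for OsCKX2 and 2.14 for OsRR4. OsRR2 lay nearest to OsRR10, at 0.37. OsRR1 differed from each other detected member by 1.66 to 2.00 and was the sole one of them at 0 in OsWRKY65-2 replicate 3.

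**Figure D4:**
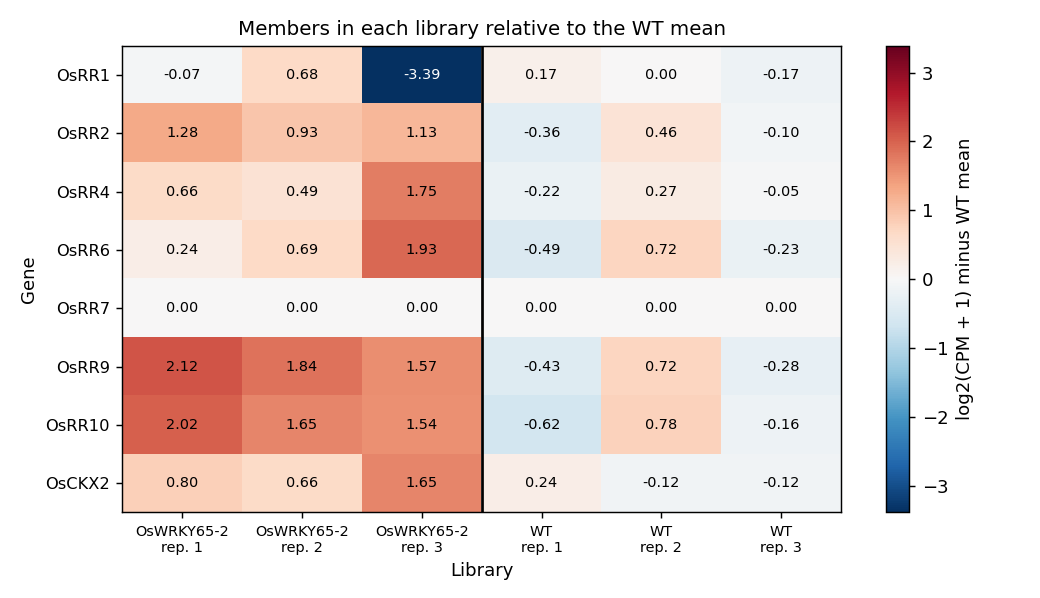
Log2 level of the 8 members in each library relative to the mean of the WT libraries, on the scale log2(CPM + 1). OsRR9 and OsRR10 follow each other across all 6 libraries, OsRR4, OsRR6 and OsCKX2 peak in OsWRKY65-2 replicate 3, and OsRR1 is lowest there.

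By the same measure over 12094 genes with an informative annotation and a mean of at least 5 CPM, the nearest gene to the summed pair OsRR9 and OsRR10 was Os05g0548900, annotated as a phosphoethanolamine methyltransferase, at 0.31. The next was Os01g0963600, an ABA/WDS-induced family protein, at 0.34. The nearest genes to OsRR2 were Os11g0570000, a receptor kinase-like protein, at 0.11, and Os12g0581900, a C2H2 zinc finger protein, at 0.14. OsRR4 lay nearest to Os08g0545000, a pyridoxal phosphate-dependent transferase, and Os05g0169100, a 60S ribosomal protein L10-2, at 0.05 and 0.06. OsRR6 was nearest to Os01g0611100, a Ran small GTPase, and Os03g0835900, a ferredoxin III precursor, both at 0.22. For OsCKX2 the nearest genes, Os03g0169900 with an Avr cleavage site domain and Os06g0256500, a glucose-6-phosphate isomerase, at 0.09 and 0.11, carry the same reservation on the pseudocount. OsRR1 was nearest to Os05g0429700, a phosphoribosylanthranilate transferase, at 0.12 and Os01g0818300, a K homology domain protein, at 0.13. With 6 libraries and this many genes searched, these values are a description of the profiles.

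The summed levels of leaf marker genes were also higher in OsWRKY65-2, but neither edgeR nor DESeq2 called any of these genes, with or without OsWRKY65-2 replicate 3. All 4 genes of the Rubisco small chain had a log2 fold change above 0, and their summed level was 16861, 18789 and 18578 TPM in OsWRKY65-2 and 9937, 9471 and 15213 TPM in WT. Of 16 chlorophyll a-b binding genes, 12 were tested and 10 of them had a value above 0, with sums of 20821, 22855 and 23038 TPM in OsWRKY65-2 and 16258, 12960 and 19011 TPM in WT. Over all tested genes, 49.5% had a value above 0. Wholly above WT lay 2 of the 4 Rubisco genes and 7 of the 12 tested chlorophyll a-b binding genes, against 7.16% of tested genes. No tested gene of either list lay wholly below, against 10.5%. Os12g0291200, a Rubisco gene wholly above WT, had 57, 82 and 96 counts in OsWRKY65-2 and 0, 0 and 48 in WT. Its separation was in part a condition of being tested. The sums of both leaf lists lay higher in every OsWRKY65-2 library than in any WT library, as did OsRR2, OsRR4, OsRR9, OsRR10 and OsCKX2. WT replicate 2, the highest WT library for most members, had the lowest sums of both leaf lists in its group. Their part in the results of the members was not tested, and in bulk leaf RNA a change in the share of a cell type and a change in RNA per cell cannot be told apart.

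The summed levels of markers of other tissues overlapped between the groups with all 6 libraries. The 5 root markers, RCc3-like proteins and silicon transporters, summed to 41.6, 46.0 and 8.93 TPM in OsWRKY65-2 and 28.6, 40.8 and 25.2 TPM in WT, so that without OsWRKY65-2 replicate 3 they lay above WT. All 3 root markers tested without that library were wholly above WT, against 14.5% of tested genes. One of them, Os02g0662000, had 19 and 28 counts in OsWRKY65-2 replicates 1 and 2 and 4, 0 and 0 in WT. It entered the test only through its counts in OsWRKY65-2, so its separation was in part a condition of being tested. The silicon efflux transporter gene Os03g0107300 was at 0 in all libraries, as was Os04g0554600 of the same list. The meristem genes OSH1 and OSH15, of the KNOX homeobox family, summed to 7.06, 5.35 and 0 TPM in OsWRKY65-2 and to 0, 6.53 and 0 TPM in WT. Among WT libraries they had counts in replicate 2 alone, which was the highest WT library for 5 members. The 33 genes of cyclin B and histones H3 and H4 summed to 2149.6, 3348 and 1067 TPM in OsWRKY65-2 and 2104, 2400 and 1816 TPM in WT. Of these, 26 were tested, with a median log2 fold change of 0.20. Among the 26, 1 lay wholly above WT and 2 wholly below, against 7.16% and 10.5% of all tested genes. Without OsWRKY65-2 replicate 3 the median was 0.68. In those libraries 15 of 26 lay wholly above WT and 2 wholly below, against 14.5% and 13.9% of tested genes. DESeq2 then called 2 higher, against 0.939% of genes. The clock gene LHY, whose transcript peaks around dawn, was at 170.3, 54.9 and 169 TPM in OsWRKY65-2 and 64.0, 62.7 and 119.6 TPM in WT, and its groups overlapped. The clock gene PRR1 was at 31.6, 38.2 and 23.3 TPM in OsWRKY65-2 and 48.0, 43.5 and 37.9 TPM in WT. GI, also a clock gene, was at 492, 395 and 381 TPM against 556, 433 and 447 TPM. Both overlapped, and log2 fold changes were 0.95 for LHY, -0.23 for PRR1 and 0.07 for GI (edgeR). The part of these genes in the results of the members was not tested.

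The rest of the cytokinin pathway gave values to both sides of 0. Text patterns on the annotation placed 60 other genes in the pathway lists, of which 22 had no count in any library and 31 were tested. The annotation does not name cytokinin for each of them. The lists include 4 genes annotated only with a receiver domain, and histidine kinases annotated for other roles. Of those 31, 20 had a log2 fold change above 0, beside 49.5% of all tested genes. Their median was 0.30 against -0.01 over all tested genes, and edgeR called none, the lowest adjusted p being 0.763. At an unadjusted p under 0.05 edgeR placed 4 of the 31 higher and 1 lower, against 4.25% and 2.26% of all tested genes. In 3 of the 31 every OsWRKY65-2 library lay above WT and in 2 every one lay below, against 7.16% and 10.5% of all tested genes, so these counts were near the background. Of the 3 above, Os04g0565200 entered the test largely through its counts in OsWRKY65-2. DESeq2 called 1 of them higher, Os04g0565200, against 0.613% of genes, and none without OsWRKY65-2 replicate 3. Without that library 20 of 32 tested genes had a value above 0, beside 51.6% of all genes, and the median was 0.23 against 0.02 over all genes. Among the 32, 6 lay wholly above WT and 3 wholly below, against 14.5% and 13.9%, and the lowest adjusted p in edgeR was 0.273.

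The upstream steps of the relay were mixed. Of the 6 tested genes annotated as histidine kinases or a cytokinin-related receptor-like kinase, 3 had a log2 fold change above 0, with a median of 0.09. Os01g0923700 and Os10g0362300, the most abundant of them, had values of -0.15 ± 0.20 and -0.12 ± 0.24 (SE), and -0.16 and -0.19 without OsWRKY65-2 replicate 3. The receptor-like kinase Os12g0454800 was at 7.55, 6.67 and 4.06 CPM in OsWRKY65-2 and 12.1, 10.2 and 8.69 CPM in WT, below WT in each library (adjusted p = 0.768, edgeR), and its log2 fold change without OsWRKY65-2 replicate 3 was -0.54 ± 0.31 (SE). The histidine kinase Os03g0717700 lay above WT in CPM but overlapped in TPM, at a log2 fold change of 0.30 ± 0.19 (SE), and 0.37 without that library. The 4 phosphotransfer proteins had a median of -0.01. Among them Os01g0743800 was at 25.6, 14.8 and 23.9 CPM in OsWRKY65-2 and 9.65, 13.4 and 10.2 CPM in WT, with a log2 fold change of 0.95 ± 0.32 (SE, edgeR, adjusted p = 0.763), and its groups overlapped in TPM. Without OsWRKY65-2 replicate 3 its value was 0.86 ± 0.31 (SE). Os09g0567400, another phosphotransfer protein, had a value of 0.25 ± 0.22 (SE), and 0.11 without that library.

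The type-B regulators, which activate type-A genes, lay to both sides of 0. Of 6 tested, 3 had a log2 fold change above 0, and the median was 0.01. Os03g0224200 and Os02g0796500, the most abundant, had values of 0.30 ± 0.21 and -0.29 ± 0.34 (SE), and 0.22 and -0.07 without OsWRKY65-2 replicate 3. Os01g0904700 was at 17.4, 14.1 and 11.7 CPM in OsWRKY65-2 and 22.3, 23.5 and 21.0 CPM in WT, wholly below WT, with a log2 fold change of -0.62 ± 0.25 (SE, edgeR, adjusted p = 0.763), and -0.50 without that library. The only other type-A gene that was tested, Os04g0494400, was at 37.1 ± 10.7 CPM in OsWRKY65-2 and 32.5 ± 1.61 CPM in WT (SD, n = 3 each). Its difference on the log2 scale was 0.19 ± 0.27 (SE, edgeR, adjusted p = 0.905), and -0.02 ± 0.23 without OsWRKY65-2 replicate 3. Of 4 other receiver-domain genes, Os09g0532400 alone was tested, at 0.17 ± 0.33 (SE), and at -0.05 without that library.

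Many enzymes that set the amount of active hormone had too few counts to be tested. Of 3 synthesis genes 1 was tested, Os04g0518800, with a log2 fold change of 0.30 ± 1.91 (SE), and 0.85 ± 1.49 without OsWRKY65-2 replicate 3. Os01g0588900 is annotated only as a carboxy-lyase, but it carries the older locus name known for LONELY GUY, the enzyme that releases active cytokinin. It was added after its values were seen, and was at 387, 167 and 393 CPM in OsWRKY65-2 and 81.4, 113 and 157 CPM in WT, with no overlap (edgeR, log2 fold change 1.43 ± 0.42 SE, adjusted p = 0.763, and 1.24 ± 0.39 without that replicate). Of the 4 other cytokinin oxidases tested, 2 had a value above 0. Os08g0460600 was at -0.06 ± 0.39 (SE), and at -0.56 ± 0.25 without OsWRKY65-2 replicate 3. Os01g0940000, annotated for crown root formation, was at 15.1, 5.07 and 52.0 CPM in OsWRKY65-2 and 2.36, 5.22 and 1.22 CPM in WT, with an overlap at WT replicate 2 and a log2 fold change of 2.997 ± 0.98 (SE, edgeR, adjusted p = 0.763). Without OsWRKY65-2 replicate 3 this value was 1.74 ± 0.66 (SE, edgeR, adjusted p = 0.418). OsCKX2 and this gene shared their highest library, OsWRKY65-2 replicate 3.

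Conjugation enzymes attach sugars that inactivate or store the hormone. Of 8 tested, 7 had a log2 fold change above 0, beside 49.5% of all tested genes, and the median was 1.16. The most abundant, Os04g0565400 and Os04g0556500, had values of 1.13 ± 0.60 and 0.70 ± 0.39 (SE), and 0.62 and 0.41 without OsWRKY65-2 replicate 3. Os04g0565200 was at 2.46, 1.96 and 13.0 CPM in OsWRKY65-2 and 0.200, 0.855 and 0.366 CPM in WT, with no overlap and its highest value again in OsWRKY65-2 replicate 3. With 5, 28 and 9 counts in WT, it entered the test largely through its counts in OsWRKY65-2. Its separation was thus in part a condition of being tested. The log2 fold change of Os04g0565200 was 3.40 ± 1.03 (SE, edgeR), and 2.05 ± 1.05 without OsWRKY65-2 replicate 3. The adjusted p with all libraries was 0.763 in edgeR and 0.04996 in DESeq2, just under the threshold in the second. Without OsWRKY65-2 replicate 3, 6 of 8 genes of this list had a value above 0, beside 51.6% of all genes, and the median was 0.50. Os07g0241700, with 0, 0 and 107 counts in OsWRKY65-2 and 15, 44 and 0 in WT, turned from 1.44 to -3.23.

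**Figure D5:**
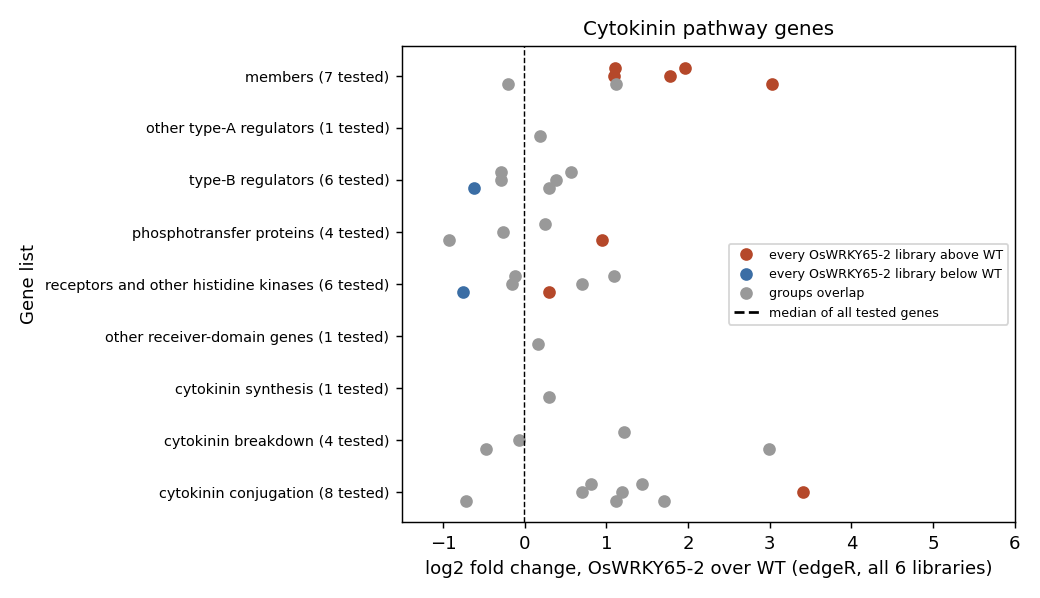
Log2 fold changes of OsWRKY65-2 over WT (edgeR, all 6 libraries, horizontal axis) of the tested members and of 31 other tested cytokinin pathway genes by list, coloured by whether the groups are separate in CPM. The members reach from -0.20 to 3.03, while receptors, phosphotransfer proteins and type-B regulators spread to both sides of 0.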

How the data were processed

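Each gene has 3 values per library in the deposited table, whose units were taken from its column names. The counts deposited by the authors are estimated counts, already whole. Deposited TPM served to compare levels between genes, and FPKM, deposited beside them, were not used. The submitters' processing notes name bcl2fastq (version 2.20.0), Trimmomatic, HISAT2 (2.1.0), StringTie (2.1.3b) and the build IRGSP-1.0, without order or options. Strand and counting settings are things the sources used here do not give, so overlapping genes and near-identical copies may share reads. Chromosomes are those written in the gene identifiers. No positions or sequences are printed.

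The whole table was fitted with edgeR 4.0.16 under R 4.3.3, by the robust quasi-likelihood test with TMM factors and genotype alone in the model. Genes entered by filterByExpr (minimum count 10), fold changes used a prior count of 2, and calls were made at an adjusted p under 0.05 by the Benjamini-Hochberg method. An SE is the size of the log2 fold change divided by the square root of F. The fitting code was tested on simulated data. Alternatives were DESeq2 1.42.0, limma 3.58.1 (voom, and trend on log2 TPM), other factors and filters, a replicate block, and each library left out. Added after seeing the data were leaving out libraries from the counts of separate groups and from the summed pair, deposited TPM and RLE factors in the same counts, and limma-voom without OsWRKY65-2 replicate 3. The members and lists were chosen with earlier results of these data known. Pathway and marker lists are text patterns or identifiers matched to the deposited annotation. Named from each pathway list were the 2 tested genes with the highest mean TPM, any called gene and up to 4 with separate groups, and for each profile the 2 most similar genes.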

Additional observations from a re-analysis of the deposited data

How the results depend on the processing

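Of 129 refitted log2 fold changes of the members and of the summed pair, 121 kept their direction and side of the threshold. OsRR1 reversed, from -0.20, in the 4 fits without OsWRKY65-2 replicate 3, to 0.38 with edgeR, DESeq2 or limma-voom and 0.24 with the replicate block. Members called higher numbered 0 in edgeR, 1 in DESeq2 and 3 in DESeq2 without that library, and other pathway genes called higher numbered 0 in edgeR and 1 in DESeq2. The cause was not tested. With each library left out in turn, log2 fold changes ranged from -1.12 to 0.38 for OsRR1, 0.93 to 1.36 for OsRR2, 0.58 to 1.32 for OsRR4, 0.41 to 1.62 for OsRR6, 1.71 to 2.52 for OsRR9, 1.47 to 2.34 for OsRR10, 1.58 to 2.44 for the pair and 2.37 to 4.13 for OsCKX2. With all 6 libraries, OsRR1 was at -2.17 with limma-voom, -1.04 on log2(TPM + 1), -2.10 on log2(TPM + 0.1) and -1.23 with the replicate block, and OsCKX2 ranged from 0.72 on log2(TPM + 1) to 4.62 with limma-voom. A minimum count of 50 removed OsCKX2, whose values are limited by depth. The median log2 fold change of all genes was -0.01 in edgeR, -0.11 with limma-voom, -0.28 on log2(TPM + 1) and -0.34 on log2(TPM + 0.1), so directions are relative to it. Same-numbered libraries did not deviate together (r = 0.05, -0.06 and -0.01). With all 6 libraries, the replicate block called 0 members and 0 genes over the whole table. Its log2 fold changes were 1.14 for OsRR2, 2.09 for OsRR9 and 1.92 for OsRR10.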
